A study of Mus musculus with 4 samples.

Results

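Tal1-detected cells are the thymocytes of Tal1/Lmo2 transgenic mice in which at least 1 transcript of Tal1 was counted. They were compared with cells of the same thymus in which none was counted. Transcripts were counted as unique molecular identifiers (UMIs, 1 per captured RNA molecule). Of 16109 cells kept in the series, 12880 came from transgenic thymi, and 8454 of these were Tal1-detected and 4426 Tal1-undetected. Tal1 UMIs alone chose the cells, so the level of Tal1 is given as a description and was left out of every comparison. The 3229 wild type (WT) cells, which carry no transgene, held 0 Tal1 UMIs, which allows a share of up to 0.0929% of cells with a UMI. That share does not cover free Tal1 RNA within a transgenic library, nor expressing cells in which no UMI was counted.

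Single-cell RNA sequencing had been done on 1 thymus per library, all of FVB/N mice. Age at harvest was 6 weeks for the WT and the preleukemic mouse and 3 months for the 2 leukemic mice (T-ALL#1 and T-ALL#2). The preleukemic and leukemic mice all carried both transgenes, Tal1 and Lmo2, each driven by the proximal Lck promoter, which is active in developing T cells. With 1 animal per library, the leukemic libraries also differ from the preleukemic one in age, and these cannot be told apart. Xist was at 1841 CPM (UMIs per 1000000 UMIs of the library) in the preleukemic library and 1331 CPM in WT, with 5 and 0 UMIs of 4 Y-linked genes, although both mice are labelled male. The count of called genes below is therefore also given without the preleukemic library. In T-ALL#1 Xist was at 1931 CPM with 1 UMI of the Y-linked genes, and in T-ALL#2 at 0.0828 CPM with 4413 UMIs. T-ALL#2 thus also differed from the other transgenic libraries in these sex-linked genes, which cannot be told apart from that animal. Pairs of libraries shared 0 to 9 cell barcodes.

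TAL1 is a basic helix-loop-helix factor of blood stem cells and erythroid cells that is normally silenced in thymocytes. It pairs with E proteins (the products of Tcf3, Tcf12 and Tcf4) on the E-box letters CANNTG, and joins GATA factors, RUNX1, LDB1 and LMO proteins in a complex. E proteins drive genes of early T-cell development, among them Rag1, Dntt and Ptcra, and sequestering them is a known action of TAL1 in T-cell leukemia. Thymocytes pass from CD4- CD8- double-negative stages to the CD4+ CD8+ double-positive stage and then to single-positive cells.

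The promoters of 3 genes that differ below are shown because E-box and GATA letters are those to which the TAL1 complex binds. Dntt and Themis were higher and Itm2a was lower in Tal1-detected cells. Each line holds the 250 bases before the gene's start in RefSeq (build GRCm38.p6), 5′ to 3′ on the gene's strand, with capitals for CANNTG and for GATA on either strand (GATA or TATC). The regions are chr19:41029025-41029274 (plus strand) for Dntt, chr10:28668110-28668359 (plus strand) for Themis and chrX:107403361-107403610 (minus strand) for Itm2a.
Dntt: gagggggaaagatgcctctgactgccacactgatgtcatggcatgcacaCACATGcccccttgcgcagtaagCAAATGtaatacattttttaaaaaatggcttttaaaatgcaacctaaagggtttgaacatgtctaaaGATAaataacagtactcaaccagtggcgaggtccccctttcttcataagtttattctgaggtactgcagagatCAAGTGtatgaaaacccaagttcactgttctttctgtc
Themis: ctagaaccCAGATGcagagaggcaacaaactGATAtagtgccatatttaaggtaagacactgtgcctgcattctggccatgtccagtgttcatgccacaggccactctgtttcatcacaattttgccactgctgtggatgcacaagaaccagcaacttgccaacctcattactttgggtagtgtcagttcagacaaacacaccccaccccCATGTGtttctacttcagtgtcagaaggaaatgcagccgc
Itm2a: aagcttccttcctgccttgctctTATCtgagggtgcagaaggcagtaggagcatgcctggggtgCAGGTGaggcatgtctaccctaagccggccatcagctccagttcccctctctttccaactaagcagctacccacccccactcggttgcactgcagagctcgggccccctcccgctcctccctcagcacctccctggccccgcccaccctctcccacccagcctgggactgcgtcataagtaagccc
Dntt held 3 E-box matches, Themis 2 and Itm2a 1, and each held 1 GATA match, with no base in both motifs. Of 32851 promoter windows of the same length, 66.2% held CANNTG and 53.6% held GATA, so a match in such a window is common.

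The share of Tal1-detected cells differed between libraries and followed the depth of a cell. It was 83.8% among preleukemic cells (4377 of 5226, exact Clopper-Pearson 95% interval 82.7 to 84.7). T-ALL#1 had 40.2% (2283 of 5679, interval 38.9 to 41.5), and T-ALL#2 had 90.8% (1794 of 1975, interval 89.5 to 92.1). Summed over cells, Tal1 stood at 404 CPM, 68.1 CPM and 234 CPM in that order. Most calls rested on few molecules, and cells with exactly 1 Tal1 UMI, just inside the limit, numbered 998, 1356 and 259, against 849, 3396 and 181 cells with 0. Cells with 5 or more Tal1 UMIs made up 23.8%, 4.16% and 37.8% of the libraries. These intervals cover counting error only, since reads of 1 thymus say nothing of the spread between animals.

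Cells with more UMIs were more often Tal1-detected. In the preleukemic library the share was 73.0% in the lowest tertile of cells by total UMIs and 92.7% in the highest tertile. T-ALL#1 went from 27.5% to 50.0%, and T-ALL#2 from 84.5% to 96.5%. When each cell was thinned to 2000 UMIs the order turned in each library. The share with a Tal1 UMI then fell from 60.6% in the lowest to 47.4% in the highest tertile of the preleukemic library, from 17.0% to 9.51% in T-ALL#1 and from 53.0% to 31.9% in T-ALL#2. Over all thinned cells it was 55.3%, 13.8% and 39.0%. Tal1 made up a smaller share of the UMIs of barcodes with many UMIs, while more such barcodes reached 1 UMI, and how much of this is free RNA was not tested. Median UMIs were 5503 in Tal1-detected and 3909 in undetected preleukemic cells, 12458 and 6780 in T-ALL#1, and 18479.5 and 11144 in T-ALL#2.

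**Figure D1:**
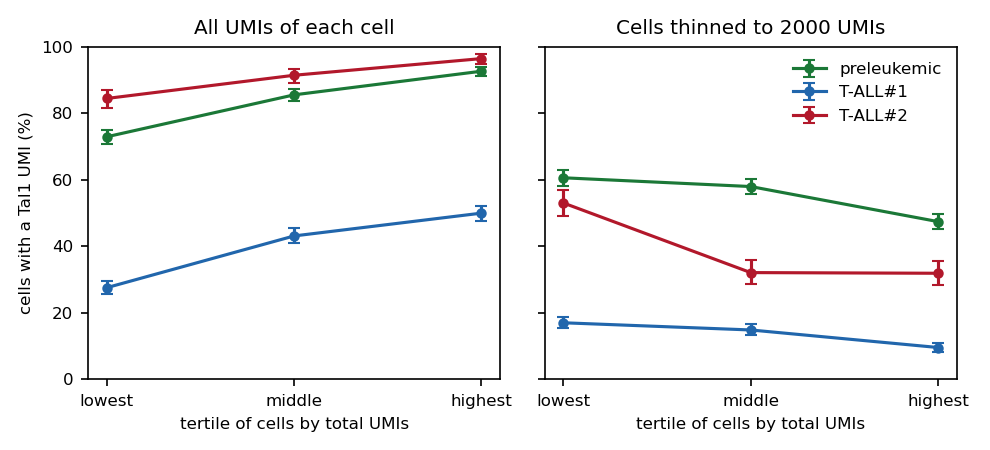
Percent of cells with at least 1 Tal1 UMI (y axis) in the lowest, middle and highest tertile of cells by total UMIs (x axis), for the 3 transgenic libraries, in all UMIs (left) and after thinning to 2000 UMIs (right). Points are shares and bars exact 95% intervals; the share rises with depth on the left (73.0% to 92.7% in the preleukemic library) and falls with depth on the right (60.6% to 47.4%).

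By stage, the thinned shares spread less than the libraries did. Preleukemic cells with both Cd4 and Cd8 UMIs were Tal1-detected in 65.4% (140 of 214, 58.6 to 71.8) after thinning and in 93.0% before it (median 6767 UMIs). Il2ra-positive cells without Cd4 and Cd8 UMIs, the gate of the double-negative 3 stage, reached 45% (171 of 380, 39.9 to 50.2) after thinning and 88.4% before it (median 9904.5 UMIs). These thinned intervals did not overlap. T-ALL#1 had 14.3% and 12.6% in the same gates, with overlapping intervals (median UMIs 5531 and 20621). T-ALL#2 had 46.6% and 28.8%, with intervals that did not overlap (median UMIs 10492 and 22371). Cycling cells (the highest tertile by S and G2/M UMIs) had lower thinned shares than the lowest tertile in each library, 50.9% against 54.9%, 7.87% against 17.3%, and 32.9% against 43.8%. Their median UMIs were 8770.5 against 5038.5 in the preleukemic library, 21357 against 5541 in T-ALL#1 and 26301 against 11180 in T-ALL#2. Thinned shares fell with depth in each library, and these gates were not matched on depth, so stage and cycling cannot be told apart from depth here. No test was made with 1 animal each.

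Cells of other lineages gave the background. B-like cells, with UMIs of at least 3 of 9 B-cell markers, were Tal1-detected in 4 of 16 preleukemic cells (25%, 7.27 to 52.4, median 4971.5 UMIs), 1 of the 12 found in T-ALL#1, and 2 of the 8 in T-ALL#2. After thinning the counts were 1, 0 and 0. At equal depth, the thinned shares of all preleukemic cells (55.3%) and all T-ALL#2 cells (39.0%) lay above the B-like intervals of 0.158 to 30.2 and 0 to 36.9, while the 13.8% of T-ALL#1 lay inside its interval of 0 to 26.5. Unthinned, median UMIs in T-ALL#1 were 9024 over all cells and 4303 in B-like cells. Myeloid-like cells were too few to compare, with 1 of 3, 0 of 3 and 2 of 3 Tal1-detected. In T-ALL#2, whose deposited matrix holds all barcodes, droplets with under 100 UMIs held Tal1 at 567 CPM (1028 of 1814232 UMIs over 1187978 barcodes), above the 234 CPM of its cells. How much free RNA added to the detected class was not tested.

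For the comparison itself, cells of both classes were matched within each library on total UMIs, which gave 849 preleukemic cells per class, 2191 from T-ALL#1 and 181 from T-ALL#2. All were thinned to 2000 UMIs and summed to 6 profiles. The matched medians were 3912 against 3909 UMIs, 11980 against 12024, and 11178 against 11144. The undetected sums held 1698000 preleukemic UMIs, 4382000 from T-ALL#1 and 362000 from T-ALL#2.

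Tal1-detected and undetected cells differed little. Of 6156 genes tested by edgeR with the library as a block, 13 were higher (0.211%) and 10 lower (0.162%) in Tal1-detected cells at a Benjamini-Hochberg adjusted p under 0.05. All 23 had the same sign in the 3 libraries. The genes that rose were led in agreement by the noncoding RNA Kcnq1ot1 and by Themis, Itpr2, Arpp21, Rcsd1, Dntt and Cd8b1, several of them genes of double-positive thymocytes, with log2 changes of 0.28 to 0.40. Those called lower were 5 genes of B cells and antigen-presenting cells, which passed the filter on low counts only through the undetected class, and Izumo1r, Tcrg-C1, Itm2a, Tmsb4x and Crip1. The count changed with the settings. Under 24 alternative settings the count ran from 0 to 106, and it was 0 without T-ALL#2, 0 without the B-like and myeloid-like cells and 0 without the block. It was 22 without the preleukemic library, of which 6 were among the 23, and 106 without T-ALL#1, of which 18 were. DESeq2 called 7 genes, all lower. A second random draw of matched cells called 44, of which 16 were among the 23. Without B-like and myeloid-like cells, 495 genes had an unadjusted p under 0.05.

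**Figure D2:**
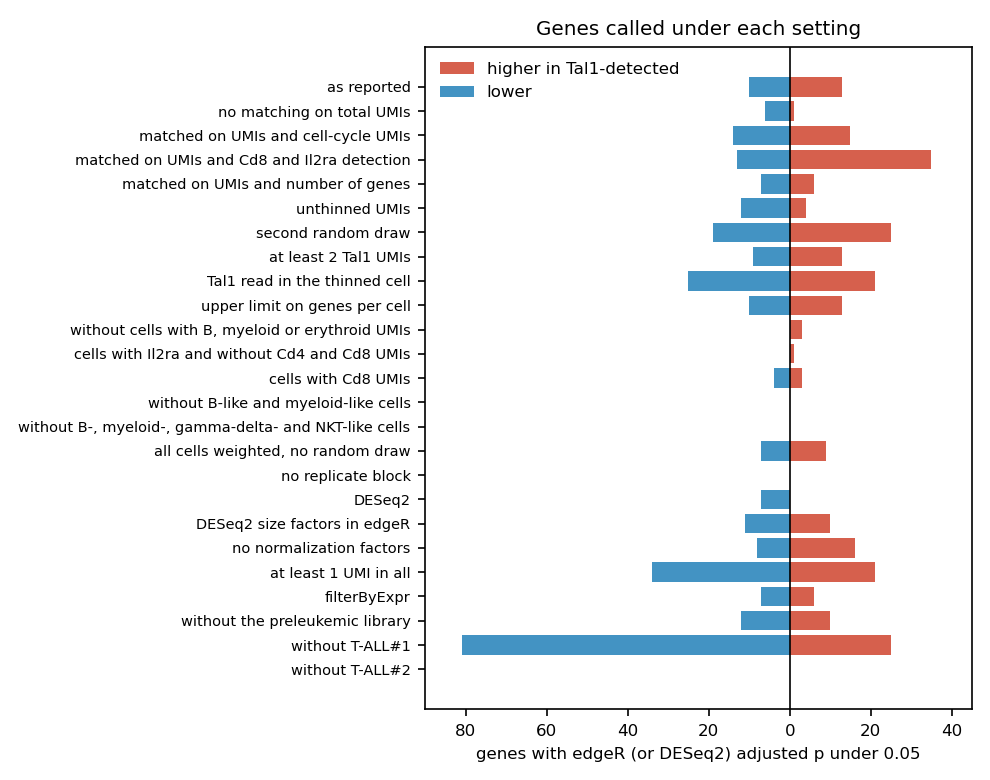
Number of genes with an adjusted p under 0.05 (x axis) higher in Tal1-detected cells (red, to the right) and lower (blue, to the left) under the reported fit (top) and each of 24 alternatives (y axis). The reported fit has 13 higher and 10 lower, the fit without T-ALL#1 has 81 lower, and DESeq2, the fit without a block, the fit without T-ALL#2 and the 2 exclusions of cells by marker counts have none higher.

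By a second measure with no test, genes were counted whose ratio lay on the same side of 1 beyond its exact 95% counting interval in all 3 libraries. There were 21 such genes higher (0.341%) and 15 lower (0.244%). A second draw gave 40, of which 21 were among these 36, and 12 of the 36 agreed without B-like and myeloid-like cells. Without the matching on depth, 124 genes agreed and 9 of the 36 were among them. The 15 lower genes include Izumo1r and genes of B cells and antigen-presenting cells. In at least 1 library, these passed the filter on low counts only through the undetected class, where they are high. Their direction there was set by the filter, so their agreement over the libraries is a description. Rag1, among the higher genes, passed in 1 library only through the Tal1-detected class.

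Genes of the double-positive stage made up 4 of the 13 that rose. Of 13 tested members of that list, 4 were called higher and 0 lower, where 0.211% of all tested genes were called higher and 0.162% lower. The median log2 change was 0.25, against -0.0016 over all genes tested. Dntt (ENSMUSG00000025014, chromosome 19, 41029275 to 41059525 on GRCm38), which encodes terminal deoxynucleotidyl transferase, stood at 656 CPM in Tal1-detected and 499 CPM in undetected preleukemic cells, 897 and 793 CPM in T-ALL#1, and 434 and 309 CPM in T-ALL#2. It was higher in each library, with a log2 change of 0.28 (SE 0.067, edgeR adjusted p 0.0323). Themis (ENSMUSG00000049109, chromosome 10, 28668360 to 28883818), a T-cell receptor signaling protein needed for positive selection, was at 459 against 337 CPM, 323 against 270 CPM, and 326 against 207 CPM. Its log2 change was 0.37 (SE 0.073, edgeR adjusted p 0.00571), and 14 of 24 alternatives called it.

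Cd8b1 (ENSMUSG00000053044, chromosome 6, 71322788 to 71337494), the CD8 beta chain, was at 320.0 against 213 CPM in preleukemic cells, 447 against 407 CPM in T-ALL#1 and 345 against 204 CPM in T-ALL#2. It rose by a log2 change of 0.36 (SE 0.081, edgeR adjusted p 0.0328), least in T-ALL#1, where the log2 ratio was 0.14 (counting interval 0.04 to 0.23). With no matching on depth its change was 0.01. Arpp21 (chromosome 9, 112065091 to 112235938), an RNA-binding protein abundant in double-positive thymocytes, was at 339 against 259.7 CPM, 419.5 against 365 CPM, and 240 against 130 CPM. It rose by 0.32 (SE 0.078, edgeR adjusted p 0.0441), and 6 of 24 alternatives called it. Rag1, a recombinase subunit of the same stage, was not called (fitted log2 change 0.36). It was at 95.5 against 51.8 CPM, 260.4 against 232 CPM, and 58.0 against 19.3 CPM. In T-ALL#2 the Tal1-detected class alone carried it past the filter on low counts, so its change over 3 libraries is a description with no p. Cd8a and Cd4 had log2 changes of 0.25 and 0.18 and did not pass either.

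The share of matched cells with Cd8a or Cd8b1 UMIs, which itself counts Cd8b1, moved with these genes. It was 35.0% in Tal1-detected and 30.5% in undetected preleukemic cells, 89.8% and 88.7% in T-ALL#1, and 89.5% and 68.5% in T-ALL#2. The mean difference of 8.84 points (SD 10.7, n = 3 libraries) had the same sign in each, with an exact two-sided sign-flip permutation p of 0.25, the smallest that 3 libraries allow. Within cells with Cd8 UMIs, Dntt had a log2 change of 0.26 (adjusted p 0.283), Arpp21 0.28 (0.407) and Themis 0.39 (0.0469), by edgeR. When cells were matched on Cd8 and Il2ra detection as well as on UMIs, all 3 were called, Dntt at 0.24 (edgeR adjusted p 0.0403), Arpp21 at 0.31 (0.0061) and Themis at 0.26 (0.0418). Over all alternatives the adjusted p of these 3 genes ran from 0.000472, 0.0061 and 0.000576 up to at least 0.999.

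Among the partners of Tal1, Runx1 passed the test in the reported fit. Runx1 (ENSMUSG00000022952, chromosome 16, 92601466 to 92826149), a core factor of the TAL1 complex, was at 350.1 against 317 CPM in preleukemic cells, 319 against 230 CPM in T-ALL#1 and 216 against 133 CPM in T-ALL#2. The libraries did not contribute equally, as the preleukemic log2 ratio was 0.14 (counting interval -0.03 to 0.31) and the leukemic ones 0.47 and 0.70. Its fitted change was 0.34 (SE 0.080, edgeR adjusted p 0.0274), and 8 of 24 alternatives called it. Runx1 was not called in a second random draw (edgeR adjusted p 0.0592) or with cells also matched on cell-cycle UMIs (0.151). It is also among the long genes described below, and its change was not tested apart from gene length. Of the 10 complex genes tested, 1 was called higher and 0 lower, beside 0.211% and 0.162% of all tested genes. Their median log2 change was 0.10. Tcf12, an E protein that pairs with TAL1, was at 409.6 against 316 CPM, 596 against 534 CPM, and 553 against 414 CPM, beyond the counting interval in each library (log2 change 0.26, edgeR adjusted p 0.0704). Myb had 0.13, Ssbp2 0.17, Tcf4 0.21, Tcf3 0.07, Cbfa2t3 0.06, Ldb1 0.01, Ssbp3 -0.04 and Gata3 -0.05 on the log2 scale, none of which passed. Lmo2, the second transgene, was too rare to test, with 9 against 13 UMIs in the preleukemic library, 1 against 7 in T-ALL#1 and 0 against 3 in T-ALL#2. The sources used here do not say whether Lmo2 transgene transcripts were counted as Lmo2.

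Lck, whose promoter drives the transgenes, did not pass (log2 change 0.21, SE 0.067, edgeR adjusted p 0.22). Its level lay beyond the counting interval in each library, at 1048 against 866 CPM in preleukemic cells, 754 against 712 CPM in T-ALL#1 and 608 against 417 CPM in T-ALL#2. It was higher in Tal1-detected cells in 3 of 3 libraries.

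Of 15 tested E protein target genes, 2 were called higher (Cd8b1 and Dntt, which the double-positive list also holds) and 0 lower, where 0.211% of all tested genes were called higher and 0.162% lower. In each library 8 of the 15 were higher and 0 lower, against 1263 and 727 of all 6156 genes. The median log2 change was 0.15, and the list was chosen with earlier results known. Ptcra, the pre-T-cell receptor alpha chain and an E protein target, did not pass (-0.19 on the log2 scale, adjusted p 0.594 by edgeR), and it rested on 4 against 10 UMIs in the preleukemic library, 1034 against 1176 in T-ALL#1 and 11 against 7 in T-ALL#2. Tcf7, a factor of T-cell commitment, had 0.15 (adjusted p 0.446 by edgeR), and Notch1 0.17 (0.519).

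Inhibitors of E proteins did not pass the test. Id3 was at 12.4 against 32.4 CPM in preleukemic cells, 58.0 against 70.7 CPM in T-ALL#1 and 213 against 260 CPM in T-ALL#2 (log2 change -0.43, edgeR adjusted p 0.195). Id2 had 17.1 against 37.7 CPM, 115 against 130 CPM, and 69.1 against 74.6 CPM (-0.30, edgeR adjusted p 0.425). Id1 went both ways, with 11 against 7 UMIs in the preleukemic library and lower levels in both leukemias (-0.53, 0.289). None of the 3 tested genes was called, where 0.211% of all tested genes were called higher and 0.162% lower. In each library 2 of the 3 were lower, against 727 of all 6156 genes.

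Of 8 tested Notch receptors and targets, 0 were called in either direction (median 0.16), and 16 genes of pre-TCR and CD3 signaling gave 0 calls as well (median -0.03). Both include genes at high levels, such as Cd3d at 800 against 803 CPM in preleukemic cells, 1274 against 1225 CPM in T-ALL#1 and 1122 against 994 CPM in T-ALL#2. The genes of quiescence and of TAL1 and LMO2 regulation that the study chose on these samples had 0 calls among 17 tested (median 0.08), and as they were chosen on these cells, the count is not independent evidence. At an unadjusted p under 0.05, 586 of all genes passed in edgeR and 99 in DESeq2. Of TAL1 targets from human T-ALL (the list of Sanda et al.), 2 of 97 tested were called higher (Runx1 and Ppm1h) and 0 lower. The shares over all tested genes were 0.211% and 0.162%, and the median of the list was 0.04. The 27 tested LMO2 targets of McCormack et al. gave 0 calls and a median of 0.02.

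**Figure D3:**
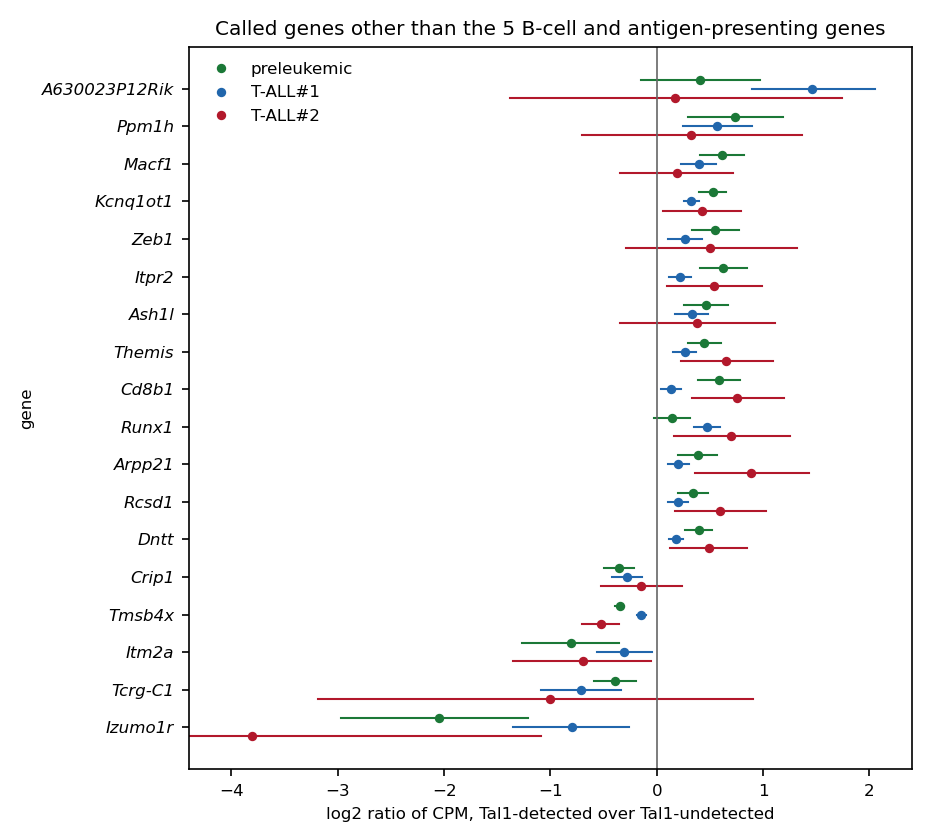
Log2 ratio of CPM in Tal1-detected over undetected matched cells (x axis) for the 18 called genes other than Mef2c, Iglc3, Cd79a, Ebf1 and Irf8 (y axis), in the 3 libraries (colors). Points are ratios and lines exact 95% counting intervals (that of Izumo1r in T-ALL#2 runs past the left edge); points lie on 1 side of 0 for each gene, and T-ALL#1 often lies closest to 0, as for Cd8b1 at 0.14.

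Of the other 9 genes that rose, 8 are long and lie in the 2 longest deciles of gene length, and A630023P12Rik does not. Of the double-positive genes called, Themis and Arpp21 also lie in the longest decile, and Dntt and Cd8b1 do not. The double-positive list was not tested apart from length. Kcnq1ot1 (ENSMUSG00000101609, chromosome 7, 143203458 to 143296549), an imprinted noncoding RNA that overlaps Kcnq1 on the other strand, was at 748 against 520.0 CPM in preleukemic cells, 836 against 667 CPM in T-ALL#1 and 403 against 301 CPM in T-ALL#2. It had the smallest adjusted p of the genes that rose (log2 change 0.40, SE 0.066, edgeR adjusted p 0.000316), and 16 of 24 alternatives called it, with adjusted p-values from 4.02e-07 to 1.00. Whether reads of its strand were counted apart from those of Kcnq1 is not given in the sources used here. Itpr2, a calcium channel of the endoplasmic reticulum, was at 256 against 166 CPM, 378 against 326 CPM, and 293 against 202 CPM (0.37, edgeR adjusted p 0.0116). Macf1, a cytoskeletal linker, rose by 0.44 (edgeR adjusted p 0.00384), Zeb1, a repressor that binds E-boxes, by 0.38 (0.0229), Ash1l, a histone methyltransferase, by 0.37 (0.0199), Ppm1h, a phosphatase, by 0.59 (0.0229), and Rcsd1 by 0.29 (0.0448). A630023P12Rik rose by 0.86 (edgeR adjusted p 0.0448), mostly on T-ALL#1 (99 against 36 UMIs, with 65 against 49 and 9 against 8 elsewhere).

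The median length of the 13 genes that rose was 171 kb from start to end, against 22.6 kb over all tested genes and 6.92 kb for the 10 that fell. Across deciles of the tested genes by length, the median log2 change went from -0.08 in the shortest decile (up to 4.32 kb) to 0.08 in the longest (over 101 kb), and 8 of the 13 lay in the longest decile, as did 2 of the 10 genes that fell (Ebf1 and Mef2c). In the preleukemic library the medians of these deciles were -0.09 and 0.10, in T-ALL#1 -0.04 and 0.09, and in T-ALL#2 0.00 and 0.15. Genes over 100 kb took 7.50% of thinned UMIs in Tal1-detected and 6.98% in undetected preleukemic cells, 5.18% and 4.85% in T-ALL#1, and 4.21% and 3.81% in T-ALL#2, higher in 3 of 3 libraries (mean difference 0.417 points, SD 0.0943, exact sign-flip permutation p 0.25, the smallest possible). The difference between the longest and shortest decile was 0.16 on the log2 scale, 0.09 when cells were also matched on their number of genes, and -0.02 without matching on depth.

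**Figure D4:**
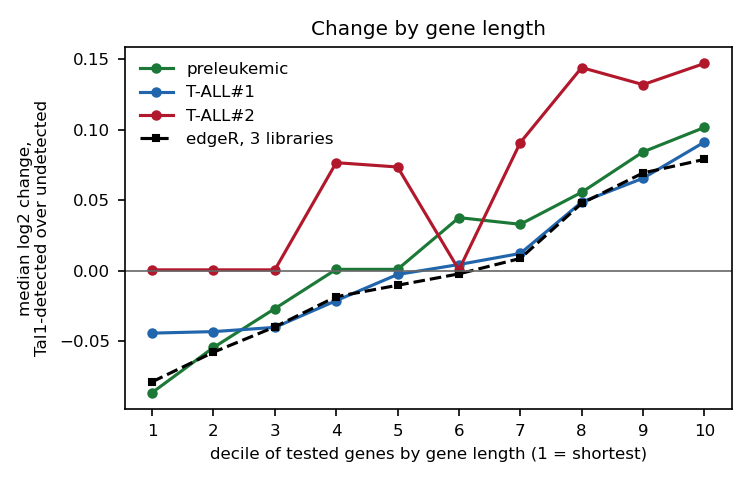
Median log2 change of Tal1-detected over undetected matched cells (y axis) in deciles of the tested genes by gene length (x axis, 1 the shortest), for the 3 libraries with 0.5 UMIs added to each sum (colors) and the edgeR fit (black, dashed). The edgeR medians rise from -0.08 to 0.08, and the T-ALL#2 medians of the shortest 3 deciles are at 0.00.

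Malat1, an abundant noncoding RNA kept in the nucleus, was higher in the same class as the long genes. It took 5.28% of thinned UMIs in Tal1-detected and 4.33% in undetected preleukemic cells, 2.36% and 2.12% in T-ALL#1, and 2.24% and 1.82% in T-ALL#2. Its level lay beyond the counting interval in each library, and it did not pass edgeR (log2 change 0.22, adjusted p 0.196). Without matching on depth its change was -0.22. Neat1, also nuclear, had 0.30 (edgeR adjusted p 0.116). Ribosomal protein genes went the other way in part, with 0 of 80 called, 4 lower beyond the counting interval in each library (Rpl37, Rpl15, Rps2 and Rpsa, by -0.13 to -0.17 in the fit) and a median of -0.09. Of all tested genes, 0.244% were lower beyond that interval, 0.211% were called higher and 0.162% lower. The ribosomal share of thinned UMIs was 18.5% against 20.3%, 26.2% against 25.9%, and 35.1% against 37.0%, lower in 2 of 3 libraries (exact sign-flip permutation p 0.5). Genes per thinned cell were 1099 against 1087, 1026.1 against 1025.8 and 905 against 875, and the mitochondrial share was 4.72% against 4.43%, 5.72% against 5.81%, and 5.23% against 5.02%. S and G2/M UMIs differed by 0.0166 points on average (SD 0.0738, exact sign-flip permutation p 0.75). The part of RNA quality in the length pattern was not tested.

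Genes of B cells and antigen-presenting cells were 5 of the 10 called lower. In no library did the Tal1-detected sum of any of these 5 reach the 10 UMIs that the filter asked for, so they entered the test only through the undetected class, where they are high. Their direction was set by that, and their values are a description with no p. Cd79a (ENSMUSG00000003379, chromosome 7, 24897381 to 24902197), a chain of the B-cell receptor complex, had 0 UMIs in Tal1-detected against 54 in undetected preleukemic cells, 6 against 46 in T-ALL#1 and 0 against 34 in T-ALL#2. Computed against a floor of 3 UMIs per library, it was at least 18.0-fold lower in the preleukemic library and at least 11.3-fold lower in T-ALL#2. Ebf1, the factor of B-cell commitment, had 0 against 34, 4 against 26 and 0 against 18 UMIs. Mef2c, a factor of lymphoid progenitors and B cells, had 0 against 31, 1 against 18 and 0 against 16 UMIs. Iglc3, a light chain constant region with close copies among which reads may have been split, had 0 against 10, 1 against 18 and 0 against 16 UMIs. Irf8, a factor of B and myeloid cells, had 2 against 18, 5 against 14 and 1 against 22 UMIs. Fitted changes of these genes depend on the prior count and are not given.

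Few cells carried these transcripts. Of the matched undetected cells, 14 preleukemic cells (1.65%), 9 T-ALL#1 cells (0.411%) and 7 T-ALL#2 cells (3.87%) were B-like or myeloid-like, against 1, 1 and 1 of the Tal1-detected cells. They held 133 of the 134 Cd79a UMIs of the undetected cells, 78 of 78 of Ebf1, 59 of 65 of Mef2c, 41 of 44 of Iglc3 and 27 of 54 of Irf8. Of the B-cell list, 4 genes were tested, and the 2 called lower were Cd79a and Ebf1. Their direction was set by the filter, as given above, so this count is no test of the list. Summed over its 9 genes, levels ran from 91.2 to 187 CPM in Tal1-detected and from 245 to 528 CPM in undetected cells, and Ms4a1 was at 0 in Tal1-detected cells of each library. Most of the remaining sum is Ighm, at 98.4 against 133 CPM, 180 against 191 CPM, and 85.7 against 157 CPM. For the 12 myeloid genes the sums were 99.5 to 146 against 110 to 426 CPM, and C1qa, C1qb and C1qc were at 0 in Tal1-detected cells of each library. Only 1 myeloid gene was tested and none called, beside 0.211% called higher and 0.162% lower of all tested genes. Cd74, which chaperones class II molecules, had 3 against 710, 16 against 223 and 1 against 194 UMIs. In the preleukemic library and T-ALL#2 it passed the filter only through the undetected class. Its values are therefore a description with no p, and the same held for H2-Aa, H2-Ab1 and Igkc. None of these was called.

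Apart from these, 5 genes fell. Izumo1r (ENSMUSG00000031933, chromosome 9, 14885814 to 14903949), a folate receptor family member found on regulatory T cells, had a fitted log2 change of -1.38. It had 15 against 62 UMIs in preleukemic cells, 46 against 80 in T-ALL#1 and 1 against 14 in T-ALL#2. In T-ALL#2 the undetected class alone carried it past the filter, so its change over 3 libraries is a description with no p. Itm2a (chromosome X, 107397099 to 107403376), a membrane protein induced as thymocytes mature, was at 38.3 against 67.1 CPM, 51.1 against 63.2 CPM, and 94.0 against 152 CPM (-0.51, SE 0.125, edgeR adjusted p 0.0448). Of 11 tested genes of mature T cells, Itm2a was the 1 called lower and 0 were called higher, with a median of -0.07. Among all tested genes, 0.162% were called lower and 0.211% higher. None of the UMIs of Izumo1r or Itm2a in undetected cells lay in B-like or myeloid-like cells.

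Tcrg-C1 (ENSMUSG00000076749, chromosome 13, 19214103 to 19217024), a constant region of the T-cell receptor gamma chain, was at 218 against 286 CPM in preleukemic cells, 22.6 against 37.0 CPM in T-ALL#1 and 11.1 against 22.1 CPM in T-ALL#2, where it rested on 4 against 8 UMIs. It fell by 0.51 on the log2 scale (SE 0.109, edgeR adjusted p 0.0116), and 13 of 21 alternatives called it, with adjusted p-values from 9.61e-06 to 1.00. Its near copies Tcrg-C2 (-0.38, edgeR adjusted p 0.394) and Tcrg-C4 (-0.31, 0.259) did not pass, and reads shared between them may have been split. Of 6 tested gamma-delta genes, 1 was called lower and 0 higher (median -0.21), beside 0.162% lower and 0.211% higher of all tested genes. Cells with UMIs of at least 3 of the 12 gamma-delta markers numbered 513 against 534 in matched preleukemic cells, 211 against 323 in T-ALL#1 and 72 against 80 in T-ALL#2. These markers do not mark a small population here, since 63.6% of all preleukemic and 53.9% of all T-ALL#2 cells reached 3 of them. Trdc, the delta chain constant region, went both ways, at 1375 against 1502 CPM, 11.2 against 1.83 CPM, and 138 against 215 CPM.

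Tmsb4x, which binds actin monomers, was at 4621 against 5875 CPM in preleukemic cells, 1956 against 2167 CPM in T-ALL#1 and 1233 against 1776 CPM in T-ALL#2 (-0.34, SE 0.068, edgeR adjusted p 0.00626). Crip1, a small LIM-domain protein, was at 417 against 534 CPM, 169 against 206 CPM, and 312 against 345 CPM (-0.31, SE 0.073, edgeR adjusted p 0.0274). Both had the same sign in each library, and the T-ALL#2 interval of Crip1 spanned 0 (-0.53 to 0.23). Without matching on depth, the change of Crip1 was -0.02.

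A stricter definition of the class gave larger values for several of these genes. With at least 2 Tal1 UMIs against 0, Kcnq1ot1 had a log2 change of 0.60, Themis 0.46, Dntt 0.43, Itpr2 0.52 and Tcrg-C1 -0.90, each called by edgeR, while Arpp21 (0.33), Cd8b1 (0.45) and Runx1 (0.39) were not. Itm2a had a smaller change, -0.39 against -0.51 in the reported fit, and was not called. The cells differed too, since T-ALL#1 entered with 910 cells per class in place of 2191. Its Tal1-detected cells then had a median of 15531 UMIs in place of 11980, and the preleukemic library and T-ALL#2 kept their numbers of cells. The difference between both definitions was not tested. This comparison called 13 genes higher and 9 lower, and 11 were among the 23.

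Ccl5, Nkg7 and Gzma of the innate-like T-cell list had ratios of different direction in different libraries. The difference was not tested for each pair of libraries. Ccl5, a chemokine of effector and NKT cells, had 79 against 119 UMIs in preleukemic cells, 204 against 42 in T-ALL#1 and 0 against 21 in T-ALL#2. Nkg7, of cytotoxic granules, had 117 against 178, 58 against 17 and 0 against 5 UMIs. Gzma went the other way in the preleukemic library and T-ALL#1, with 258 against 224, 2452 against 3215 and 292 against 566 UMIs. Summed over its 10 genes, the list was lower in Tal1-detected cells of each library. Its levels were 283 against 356 CPM, 641 against 768 CPM, and 815 against 1663 CPM. In all kept cells, 73.0% of preleukemic NKT-like cells (at least 3 of 10 markers) were Tal1-detected (84 of 115, interval 64.0 to 80.9). The T-ALL#1 share was 61.9% (39 of 63, interval 48.8 to 73.9), and T-ALL#2 held 4 such cells, 1 of them detected. This was below the 83.8% of all preleukemic cells and above the 40.2% of all T-ALL#1 cells, beyond the counting intervals of both. The median depth of these cells was 7138 UMIs in the preleukemic library and 11049 UMIs in T-ALL#1, against 5124.5 and 9024 UMIs over all cells. After thinning, the shares were 37.4% (28.5 to 46.9) against 55.3% over all preleukemic cells, and 20.6% (11.5 to 32.7) against 13.8% in T-ALL#1, where the intervals overlapped. The 2 tested genes of this list, Ccl5 and Gzma, gave 0 calls, beside 0.211% called higher and 0.162% lower of all tested genes.

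The Tal1 contrast was then compared between the preleukemic and the leukemic libraries with an interaction term in edgeR. It called 2 of 6156 genes (0.0325%), Cst3 and H2-Aa, both with a more negative contrast in preleukemic cells. Cst3, a protease inhibitor high in myeloid cells, was at 139 against 374 CPM in preleukemic cells, 97.9 against 96.5 CPM in T-ALL#1 and 94.0 against 119 CPM in T-ALL#2. H2-Aa had 0 against 231, 13 against 86 and 4 against 60 UMIs. In the preleukemic library and T-ALL#2 it passed the filter on low counts only through the undetected class, so its call is a description. No gene of the double-positive, E protein or Tal1 complex lists was called by this term when cells were matched on UMIs alone. The preleukemic contrast is 1 library with no spread of its own. The test therefore rests on the spread between the 2 leukemias, moderated over all genes. Stage of disease and animal cannot be told apart.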

How the data were processed

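The authors deposited counts, the UMIs of 31053 genes per barcode with no normalization, from 4 libraries of 10x Genomics 3′ RNA sequencing. Per the file headers, Cell Ranger 3.0.2 wrote the WT, preleukemic and T-ALL#1 matrices, which hold called cells, and Cell Ranger 4 that of T-ALL#2, which holds all 1791965 barcodes. The submitters' processing notes name the genome build mm10. Chemistry per library is not given in the sources used here. Version and cell calling belong to T-ALL#2 alone and cannot be told apart from that animal.

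Barcodes were kept with more than 500 genes, a mitochondrial share under 10% and at least 2000 UMIs. For T-ALL#2 the limit was 3416 UMIs, 1/10 of the 99th percentile among the top 10000 barcodes. This kept 3229 WT, 5226 preleukemic, 5679 T-ALL#1 and 1975 T-ALL#2 cells, with 22742303, 40343548, 70603705 and 36236569 UMIs. No doublet caller was run, and an upper limit on genes was an alternative.

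Within each library, equal numbers of Tal1-detected and undetected cells were drawn per bin of 0.1 in log2 total UMIs, each cell was thinned to 2000 UMIs without replacement, and UMIs were summed per library and class. Genes with at least 10 UMIs over both sums of each library were tested in edgeR 4.0.16 under R 4.3.3 (robust quasi-likelihood fit, TMM factors), with the library as a block because both sums of a library come from 1 animal. Adjustment followed Benjamini and Hochberg, and genes under 0.05 were called. The p-values set each change against the spread between 3 within-animal differences, moderated over all genes. The common biological coefficient of variation was 0.0507 and the median prior degrees of freedom 49.4. The spread used for a gene thus came mostly from all genes together and little from its own 3 differences. TMM moved the median change of all genes by less than 0.1 (log2). DESeq2 1.42.0 was an alternative. The test was tried on simulated counts. Ratios within a library carry exact 95% binomial intervals, for counting error only. Scalars per class were compared by an exact sign-flip permutation test over 3 libraries.

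Named genes were the 15 highest and 15 lowest (10 and 10 without cell-cycle, ribosomal and mitochondrial genes) that passed edgeR and agreed over the libraries, ranked by the smallest absolute log2 ratio, filled up with genes that agreed. Added to these were Lmo2, Lck, the lists of the Tal1 complex, E proteins, Notch, pre-TCR and quiescence, and genes of the interaction. Other genes, such as the remaining called genes, Neat1, Igf1r, Trbc1 and markers of other cell types, were named after their values were seen. The members and lists were chosen with earlier results of these data known. Gene positions are those of GENCODE M21 (GRCm38), and 6155 of 6156 tested genes had a length. Promoters came from RefSeq (GRCm38.p6). Cd8b1 is named without a promoter sequence.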

Additional observations from a re-analysis of the deposited data

Results flagged for a closer look

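The Tal1 contrast of 2 genes differed between the preleukemic and the leukemic libraries by the interaction term of edgeR. For Cst3 the interaction was -1.40 on the log2 scale (SE 0.205, edgeR adjusted p 0.000573), with log2 ratios of -1.43 (preleukemic), 0.02 (T-ALL#1) and -0.34 (T-ALL#2). For H2-Aa it was -8.00, a value that depends on the prior count because Tal1-detected preleukemic cells held 0 UMIs against 231, at least 76.9-fold lower. In that library and in T-ALL#2 (4 against 60 UMIs), H2-Aa passed the filter on low counts only through the undetected class. Its values are therefore a description with no p. The leukemic log2 ratios of H2-Aa were -2.73 and -3.91. Of the H2-Aa UMIs of undetected cells, 117 of 231 in the preleukemic library, 75 of 86 in T-ALL#1 and 55 of 60 in T-ALL#2 lay in cells with at least 3 B-cell or myeloid markers. With cells also matched on Cd8 and Il2ra detection, Cst3 was called again and H2-Aa was not. The preleukemic side of both contrasts is 1 library with no spread of its own. The test therefore rests on the spread between 2 leukemias, moderated over all genes, and the cause was not tested.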

How the results depend on the processing

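The reported fit called 23 genes. Counts outside 1.5 times that number were 7 with no matching on depth, 48 with cells also matched on Cd8 and Il2ra detection, 13 with cells also matched on number of genes, 44 with a second random draw, 46 with Tal1 read in the thinned cell, 3 without any cell holding B, myeloid or erythroid UMIs, 1 in Il2ra-positive cells without Cd4 and Cd8 UMIs, 7 in cells with Cd8 UMIs, 55 with at least 1 UMI as the filter, 13 with filterByExpr and 7 with DESeq2. The fit with no replicate block called 0 genes (15 at an unadjusted p under 0.05), and the block was set by the pairing of both sums within an animal. Leaving out 1 library gave 0 to 106 genes, 0 (548 at an unadjusted p under 0.05) without T-ALL#2, 22 without the preleukemic library and 106 without T-ALL#1. Of 3 alternatives chosen after seeing the data, the exclusion of B-like and myeloid-like cells called 0 (495 at an unadjusted p under 0.05), the further exclusion of gamma-delta-like and NKT-like cells 0 (285), and weighting all cells with no random draw 16. Unthinned UMIs gave 16 calls and the other settings 21 to 29. Fewer cells and genes entered several of these fits, such as 976 genes tested in Il2ra-positive cells, and otherwise the cause was not tested.

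The 36 genes beyond the counting interval in each library became 124 with no matching, 20 with Cd8 and Il2ra matching, 14 with matching on genes, 140 with unthinned UMIs, 13 in cells with Cd8 UMIs, 1 without cells holding B, myeloid or erythroid UMIs, 0 in Il2ra-positive cells, 19 without B-like and myeloid-like cells and 10 without gamma-delta-like and NKT-like cells too. The interaction called 8 genes instead of 2 with Cd8 and Il2ra matching (Cst3, H2-Ab1, Id3, Klk8, Trac, Trf, Gzma and Cd2ap). Shares of Tal1-detected cells read in thinned cells were 55.3%, 13.8% and 39.0%, and with a mitochondrial share under 5% those of the preleukemic library and T-ALL#2 were 81.8% and 92.2%.

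Directions turned for 14 values. With no matching, Malat1 was at -0.22, Mbnl1 -0.0464, Rpl15 0.0357, Rpl37 0.0433, Rps2 0.14, Rpsa 0.11 and the difference between the longest and shortest length decile -0.0232. Zfp266 was at -0.0352 in the second draw and -0.0943 with Tal1 read in thinned cells. In Il2ra-positive cells, Arpp21 was at -0.0363, Crip1 0.0703, Rpl37 0.0241, Runx1 -0.25 and Themis -0.0403.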

Other observations

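Gene groups outside the comparisons above also gave values. Of 36 tested S phase genes, 12 were lower and 4 higher in each library (median log2 change -0.14, 0 called by edgeR), and of 35 tested G2/M genes 10 were higher and 4 lower (median 0.00, 0 called), beside 727 lower and 1263 higher of all 6156 genes. Smc4, a condensin subunit of the G2/M list, lay beyond the counting interval in each library at 1581 against 1329 CPM, 851 against 762 CPM, and 1020 against 809 CPM (0.21, edgeR adjusted p 0.195). Of 13 immediate early and heat shock genes, 0 were called (median -0.09), and the 13 genes of the mitochondrial genome gave 0 calls and a median of 0.01. The shares called over all tested genes were 0.211% higher and 0.162% lower.

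Cpa3, a carboxypeptidase of mast cells that the study listed among its TAL1 and LMO2 genes, was at 2282 against 2622 CPM in matched preleukemic cells (log2 ratio -0.20, counting interval -0.26 to -0.14) and had 16 against 23 and 0 against 3 UMIs in the leukemias, too few for the test across libraries. Other mast cell genes were near 0, with 2 against 3 UMIs of Gata2 and 1 against 3 of Hdc in the preleukemic library. Among genes of single leukemias, Igf1r was at 56.2 against 23.5 CPM in T-ALL#1 (log2 ratio 1.26, 0.92 to 1.60), and -0.33 and -0.29 elsewhere with intervals that span 0. Trbc1 was at 1435 against 1016 CPM in T-ALL#1, at 3245 against 3190 CPM in preleukemic cells and at 0 against 2 UMIs in T-ALL#2, and was not tested there.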
